A study of Homo sapiens with 6 samples.

Results

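MHC class I antigen presentation genes were followed in MDA-MB-231 cells, a triple-negative human breast cancer cell line, with and without Parishin B (PB). The 9 members were HLA-B, HLA-C, HLA-E, B2M, TAP1, TAP2, TAPBP, PSMB8 and PSMB9, each taken from the table by its gene symbol, out of 61806 genes listed. The study screened for inhibitors of TRIB3, picked PB, one of the parishins known from the orchid Gastrodia elata, and used RNA-seq to look for the mechanism by which PB acts on breast cancer cells. Poly(A) RNA was sequenced from 3 control samples and from 3 samples collected after 24 h of 20 μM PB. Both groups were the same unmodified line, and the vehicle given to the control cells is not given in the sources used here.

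MHC class I molecules show peptides from inside the cell to CD8+ T cells and carry ligands for receptors of natural killer cells. The proteasome cuts proteins into peptides, and the interferon-inducible subunits PSMB8 and PSMB9 replace constitutive subunits in the immunoproteasome. The TAP1-TAP2 transporter moves the peptides into the endoplasmic reticulum, where tapasin (TAPBP) holds it beside empty class I molecules. There a polymorphic heavy chain such as HLA-B or HLA-C, or the nonclassical heavy chain HLA-E, pairs with the light chain β2-microglobulin (B2M). Tumour cells often express these genes at low level, and interferon is known to raise them together through factors that include IRF1 and NLRC5.

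Because interferon-responsive promoters are what these genes are known to share, the reference sequence before the start site was read for the members. RefSeq windows (GRCh38.p14, 250 bases before the start, written 5′ to 3′ on the gene's strand) were found for 8 of the 9 members, with HLA-E not matched. Capitals mark the interferon-stimulated response element, searched on both strands as GAAA and GAAA with any 2 bases between or, as in the class I heavy chains, as GAA and GAAA with any 2 bases between, and the NF-κB site, searched as GGG, any 2 bases, TT, any 1 base and CC. Windows of 1 heavy chain that rose with PB and of the light chain, a transporter chain and tapasin, which fell, are shown so that a reader can compare the elements in members that moved in opposite directions.
HLA-B, chr6:31357180-31357429, minus strand: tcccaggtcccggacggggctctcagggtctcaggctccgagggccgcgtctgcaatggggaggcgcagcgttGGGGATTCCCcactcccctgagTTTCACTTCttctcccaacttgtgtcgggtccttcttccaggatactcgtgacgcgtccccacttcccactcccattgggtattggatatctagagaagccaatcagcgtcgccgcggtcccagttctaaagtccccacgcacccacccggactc
B2M, chr15:44711267-44711516, plus strand: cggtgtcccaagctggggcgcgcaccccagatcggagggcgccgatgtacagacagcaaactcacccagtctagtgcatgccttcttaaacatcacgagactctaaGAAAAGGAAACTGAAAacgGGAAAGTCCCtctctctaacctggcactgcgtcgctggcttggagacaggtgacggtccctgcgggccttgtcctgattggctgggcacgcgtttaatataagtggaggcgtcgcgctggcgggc
TAP1, chr6:32853705-32853954, minus strand: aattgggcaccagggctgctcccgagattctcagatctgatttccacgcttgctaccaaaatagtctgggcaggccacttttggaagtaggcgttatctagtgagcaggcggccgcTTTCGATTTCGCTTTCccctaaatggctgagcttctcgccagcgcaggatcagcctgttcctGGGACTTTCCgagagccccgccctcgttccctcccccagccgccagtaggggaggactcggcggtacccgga
TAPBP, chr6:33314079-33314328, minus strand: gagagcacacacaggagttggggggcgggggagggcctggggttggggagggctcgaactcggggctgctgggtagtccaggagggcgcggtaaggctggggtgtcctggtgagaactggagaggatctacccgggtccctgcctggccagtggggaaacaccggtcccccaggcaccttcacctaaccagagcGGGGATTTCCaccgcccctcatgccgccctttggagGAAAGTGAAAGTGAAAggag

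The HLA-B start site used by RefSeq lay 9888 bases inside the longer gene drawn in the deposited table. In HLA-B the NF-κB match began 177 bases before the start and the response element 155 bases before it. In B2M a response element was 144 bases before the start, overlapped by another at 138, and the NF-κB match was at 125. TAP1 had the same pair of overlapping elements at 134 and 128 bases and its NF-κB match at 72, whereas in TAPBP the elements stood at 20 and 14 bases. One or the other spacing of the response element was found in 6 of the 8 windows (HLA-B, HLA-C, B2M, TAP1, TAP2 and TAPBP), against 9.08% of 35116 RefSeq promoter windows of the same length. HLA-B and HLA-C matched only the spacing with GAA. It was searched because class I heavy chains carry it, so their matches are no independent result. The spacing with GAAA on both sides was in 4 of the 8 (B2M, TAP1, TAP2 and TAPBP), against 3.02% of all windows. The NF-κB letters were found in 4 of 8 (HLA-B, B2M, TAP1 and TAPBP), against 5.07% of all windows. PSMB8 and PSMB9 had neither spacing in their 250 bases. The start sites of TAP1 (32853704, minus strand) and PSMB9 (32854192, plus strand) point away from each other, and their windows overlap. The elements marked for TAP1 therefore also lie before the PSMB9 start, beyond the window read for PSMB9. TGACG, the core of the cAMP response element, was in 6 of the 8 windows against 21.2% of all, and CCAAT in 5 against 32.0%. These are matches of letters and were not tested as binding sites.

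Each library held between 15681655 and 21986948 counts assigned to genes, so that a floor of 3 counts was 0.136 to 0.191 CPM, the count scaled to library size. Levels are given as FPKM, fragments scaled by library size and by the exonic length deposited for the gene. That length ran from 2507 bases for HLA-C to 10357 for TAP2 among the members. FPKM compared between genes, as in rankings, shares and the level of a ratio, depends on it. A single gene's change between groups does not. Changes are log2 fold changes of PB over control from edgeR's quasi-likelihood test on the counts with TMM scaling, and a gene was said to rise or fall when its Benjamini-Hochberg adjusted p over 24200 tested genes was at most 0.05. A DEG also had an absolute log2 fold change of at least 1. TMM factors were 0.948 to 0.962 in the control and 1.04 to 1.05 in the PB libraries, so a fitted change is lower than the ratio of the FPKM. Over the tested genes together the middle value was 0.00 with TMM and 0.13 with library size alone, on the log2 scale. With TMM 5864 genes rose and 6335 fell, and with library size alone 7701 rose and 4884 fell. The 3 libraries of a group differed by more than sampling noise and correlated at 0.994 or above, against 0.947 at most between groups. No label says that the libraries came from separate cultures, so p-values measure the spread between these libraries, which may be technical.

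The MDA-MB-231 markers VIM, CD44, AXL, CAV1, ZEB1 and FN1 were present in every library, summing to 981 to 1010 FPKM in the control and 940 to 944 FPKM with PB. Most of the sum was VIM, at a mean of 603 and 635 FPKM. With TMM 5 of the 6 fell and 1, ZEB1, rose. CAV1 went from 71.1 to 34.9 FPKM (log2 fold change -1.16) and FN1 from 7.25 to 2.90 FPKM (-1.46), and these 2 were DEGs. All 11 leukocyte markers were below 1 FPKM in both groups, with MS4A1 and HLA-DRA at 0, and their sum was 1.37 to 1.65 FPKM in the control and 0.72 to 1.01 FPKM with PB. The 10 epithelial markers summed to 440 to 447 FPKM in the control and 159 to 164 FPKM with PB, most of it KRT8 and KRT18. Of 9 tested, 7 fell and 1, ESRP1, rose (log2 fold change 1.63). CDH1 went from 428, 387 and 522 counts in the control libraries to 2, 0 and 2 with PB. ELF3 went from 215, 267 and 309 counts to 1, 0 and 0. The part of this shift in the results was not tested. For 113 genes every control library held 30 counts or more while no PB library held over 3, with 1 gene the other way round, and none of the members was among them.

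All 9 members were measured well enough to be tested and all 9 passed, 3 higher and 6 lower with PB. Over all tested genes 50.4% passed, 24.2% higher and 26.2% lower. The heavy chains HLA-B, HLA-C and HLA-E rose, while the light chain B2M, the transporter chains TAP1 and TAP2, tapasin and the immunoproteasome subunits PSMB8 and PSMB9 fell. No member was a DEG, against 12.5% of tested genes (5.57% higher and 6.90% lower), and 9 genes are too few to set these shares apart. The members' median log2 fold change was -0.32 beside 0.00 over all tested genes. Of tested genes 11.9% had a lower value than PSMB9, the largest fall, and 32.5% a higher value than HLA-E, the largest rise. The FPKM of the groups did not overlap in any of the 9, as was the case for 55.6% of tested genes (34.1% higher and 21.6% lower with PB). For each single gene the exact two-sided permutation test over the samples gave p = 0.1, the smallest that 3 against 3 allows. In bulk RNA, fewer cells with a transcript and less of it per cell cannot be told apart.

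**Figure D1:**
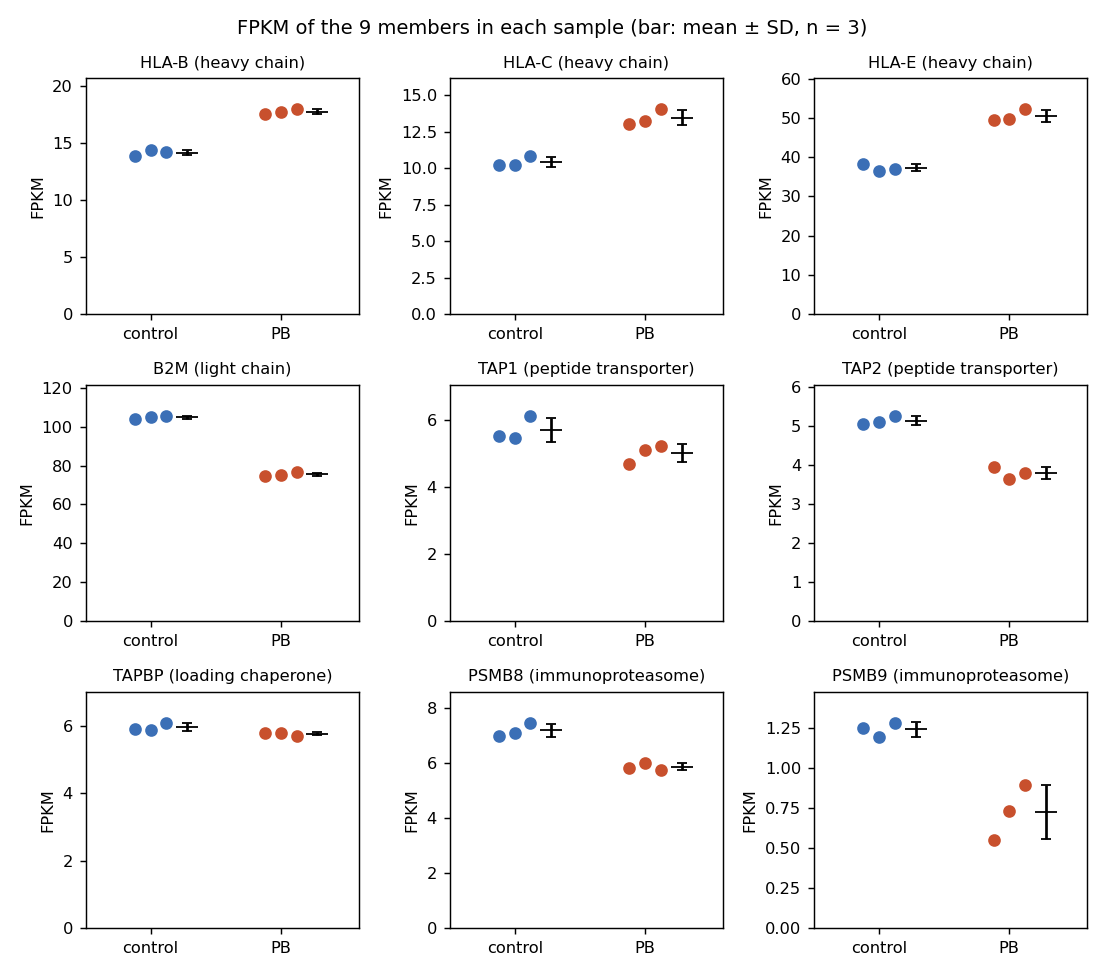
FPKM of the 9 members (vertical axes, each from 0) in the 3 control and 3 PB samples (points), with the mean and SD beside them. The 3 heavy chains sit higher with PB and the other 6 genes lower, with no overlap between groups, and the gap is widest relative to the level in PSMB9 and narrowest in TAPBP.

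HLA-E, which presents leader peptides of other class I chains to the NKG2A receptor, was the most abundant heavy chain of the 3 and rose the most. The gene (ENSG00000204592) lies on chromosome 6 at 30489509 to 30494194 of hg38, plus strand. Its level was 38.26, 36.52 and 37.01 FPKM in the control samples and 49.36, 49.80 and 52.19 FPKM with PB. Every PB sample stood above every control sample, and the mean went from 37.3 ± 0.897 to 50.5 ± 1.52 FPKM (SD, n = 3). The fitted log2 fold change was 0.31 (SE 0.033, 95% interval 0.24 to 0.37; adjusted p = 2.05e-12, edgeR).

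HLA-B and HLA-C, classical heavy chains that present peptide to T cells, rose by less. HLA-B (ENSG00000234745; 31353872 to 31367067, minus strand) was at 13.91, 14.38 and 14.27 FPKM in the control samples and at 17.55, 17.71 and 17.99 FPKM with PB. The samples within each group lay close together and the groups apart, and the log2 fold change was 0.19 (SE 0.040; edgeR adjusted p = 3.35e-05). HLA-C (ENSG00000204525; 31268749 to 31272130, minus strand) was at 10.20, 10.20 and 10.81 FPKM in the control samples and at 13.06, 13.25 and 14.04 FPKM with PB. The third library was the highest of its group in both, and the log2 fold change was 0.24 (SE 0.060; edgeR adjusted p = 5.68e-04). The 95% intervals of the 3 heavy chains' changes overlapped (0.11 to 0.27 for HLA-B, 0.12 to 0.36 for HLA-C), and a difference among them was not tested on this scale. HLA genes are polymorphic and share long stretches of near-identical sequence, and how reads that match several of them, or alleles unlike the reference, were counted is not given in the sources used here, so their levels are uncertain.

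As a share of the summed FPKM of HLA-B, HLA-C and HLA-E, HLA-E made up 0.602 ± 0.0096 in the control and 0.618 ± 0.0016 with PB, and HLA-B 0.229 ± 0.0062 and 0.217 ± 0.0033. In both the groups did not overlap (exact permutation p = 0.1, 0.15 adjusted over 9 ratios). The HLA-C share was 0.168 ± 0.0054 and 0.165 ± 0.0018, and its groups overlapped (exact permutation p = 0.4, 0.45 adjusted).

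B2M, the light chain that class I heavy chains need to fold and reach the surface, went the other way. It is the 1 member outside the MHC region (ENSG00000166710; chromosome 15, 44711358 to 44718851, plus strand) and was the most abundant of the 9 in both groups. Its level was 104.01, 105.12 and 105.46 FPKM in the control samples and 74.57, 75.37 and 76.44 FPKM with PB. The samples of a group lay close together, and the gap between the groups was many times as wide as the range within either. The fitted log2 fold change was -0.61 (SE 0.025, 95% interval -0.66 to -0.56; edgeR adjusted p = 8.29e-32), and 18.6% of tested genes had a lower value.

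Set against each other within a library, where the scaling between samples cancels, the heavy chains gained on the light chain. The summed FPKM of HLA-B, HLA-C and HLA-E was 62.37, 61.10 and 62.09 in the control samples and 79.97, 80.76 and 84.22 with PB. Divided by B2M it was 0.60, 0.58 and 0.59 in the control samples and 1.07, 1.07 and 1.10 with PB. The mean ratio thus went from 0.590 ± 0.0093 to 1.08 ± 0.017 (SD, n = 3), a log2 difference of 0.88 or 1.83-fold, with no overlap (exact permutation p = 0.1, 0.15 adjusted over 9 ratios).

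**Figure D2:**
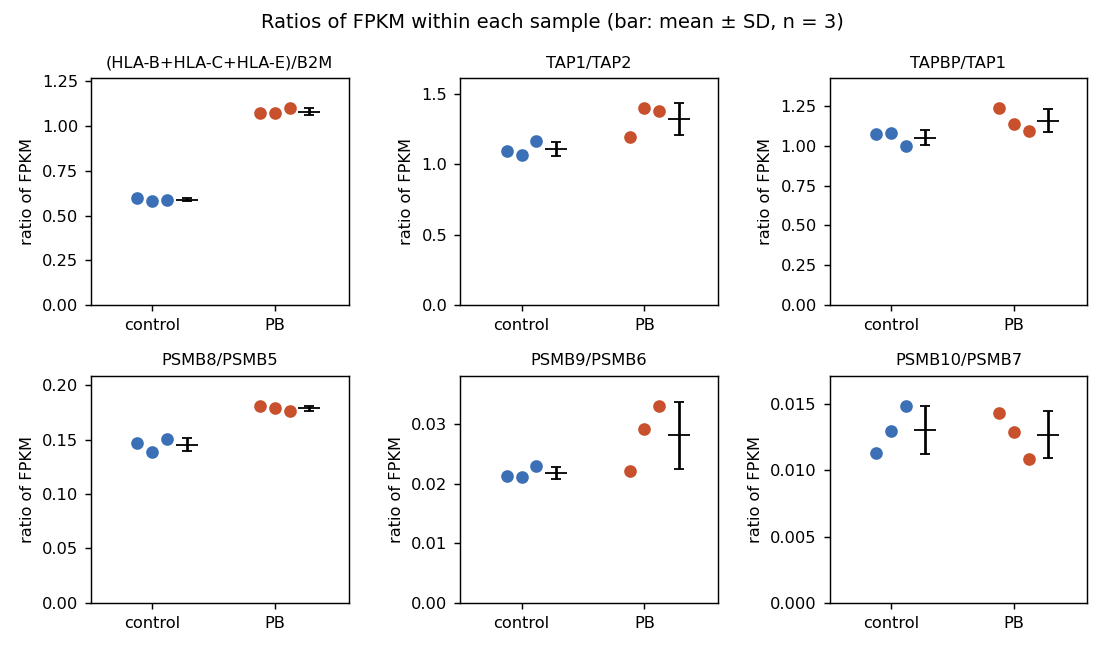
Ratios of FPKM within each sample (vertical axes, each from 0) for the 3 control and 3 PB samples (points), with mean and SD. The summed heavy chains over B2M go from 0.590 to 1.08, PSMB8 over PSMB5 and the ratios among TAP1, TAP2 and TAPBP move without overlap, and PSMB9 over PSMB6 and PSMB10 over PSMB7 overlap.

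The peptide transporter is a heterodimer of TAP1 and TAP2, and both chains fell. TAP2 (ENSG00000204267; chromosome 6, 32821833 to 32838739, minus strand) was at 5.05, 5.11 and 5.26 FPKM in the control samples and at 3.94, 3.65 and 3.80 FPKM with PB, a log2 fold change of -0.57 (SE 0.049; edgeR adjusted p = 2.32e-16). TAP1 (ENSG00000168394; 32845209 to 32853816, minus strand) was at 5.51, 5.45 and 6.11 FPKM in the control samples and at 4.69, 5.10 and 5.23 FPKM with PB. The highest PB sample came close to the lowest control sample in TAP1, and its log2 fold change was -0.32 (SE 0.066; edgeR adjusted p = 2.61e-05). On log2 of FPKM with limma, whose scale keeps the libraries' total size, TAP1 was at -0.18 with a pseudocount of 0.1 (limma adjusted p = 0.0596) and did not pass. The ratio of TAP1 to TAP2 was 1.11 ± 0.049 in the control and 1.32 ± 0.114 with PB, with no overlap (log2 difference 0.25, exact permutation p = 0.1, 0.15 adjusted).

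Tapasin, which bridges the transporter to the class I molecule and edits its peptide, showed the smallest change. TAPBP (ENSG00000231925; 33299694 to 33314284, minus strand) was at 5.91, 5.89 and 6.10 FPKM in the control samples and at 5.80, 5.81 and 5.72 FPKM with PB. The groups did not overlap, but their means lay closer together than the highest and lowest control samples did. The log2 fold change was -0.18 (SE 0.052; edgeR adjusted p = 0.00206) with TMM and -0.05 with library size alone (edgeR adjusted p = 0.435), so this call depended on the scaling. Relative to TAP1, TAPBP went from 1.05 ± 0.045 to 1.16 ± 0.073 with no overlap (exact permutation p = 0.1, 0.15 adjusted).

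PSMB8 and PSMB9 encode the interferon-inducible catalytic subunits that take the place of PSMB5 and PSMB6 when the immunoproteasome is assembled. PSMB8 (ENSG00000204264; 32840717 to 32844679, minus strand) was at 6.99, 7.10 and 7.46 FPKM in the control samples and at 5.82, 6.01 and 5.75 FPKM with PB, a log2 fold change of -0.43 (SE 0.067; edgeR adjusted p = 8.56e-08). PSMB9 (ENSG00000240065; 32844136 to 32859851, plus strand) was the least abundant member, at 1.25, 1.19 and 1.28 FPKM in the control samples and at 0.55, 0.73 and 0.89 FPKM with PB. These values rested on 68, 68 and 94 counts in the control and 29, 38 and 56 with PB, whereas every other member had at least 322 counts in every library. PSMB9 had the largest change of the 9, a log2 fold change of -0.90 with the widest error (SE 0.180, 95% interval -1.26 to -0.54; edgeR adjusted p = 1.61e-05), and from -1.10 to -0.74 when single libraries were left out.

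TAP2, PSMB8, TAP1 and PSMB9 lie side by side in the MHC class II region. By the table's coordinates PSMB9 overlapped TAP1 over 8608 bases and PSMB8 over 544, in both cases on the opposite strand, and the antisense gene PSMB8-AS1 overlapped all 3 with 54 counts over the control and 43 over the PB libraries. The RefSeq start of PSMB9 lay 10056 bases inside the gene as deposited, so its overlaps with TAP1 and PSMB8 fall before that start. Whether strand was used in counting is not given in the sources used here, so reads of these overlapping genes may not be told apart. A gene without a symbol (ENSG00000289100), opposite to TAPBP, held 49 and 83 counts in the 2 groups, against 2204 and 1938 for TAPBP. Other genes overlapped members on the same strand, where strand cannot separate reads. ENSG00000250264 covered 16907 bases of TAP2 and held 20 counts over the control and 34 over the PB libraries, against 2956 and 1987 for TAP2. DHFRP2 covered 6203 bases of HLA-B and held 16 and 12 counts, against 3638 and 4149 for HLA-B.

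Both in the control and with PB, the members ranked B2M, HLA-E, HLA-B and HLA-C by FPKM, followed by PSMB8, TAPBP, TAP1, TAP2 and PSMB9. The ranges of TAPBP and TAP1 overlapped in the control samples, and those of PSMB8 and TAPBP overlapped with PB, so these neighbours did not differ beyond their spread. The other neighbours stood apart within each group. The order depends on the exonic length. In control CPM, which leaves length out, TAP2 (53.2) stood above TAPBP (39.7), TAP1 (26.9), HLA-C (26.1) and PSMB8 (25.0).

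**Figure D3:**
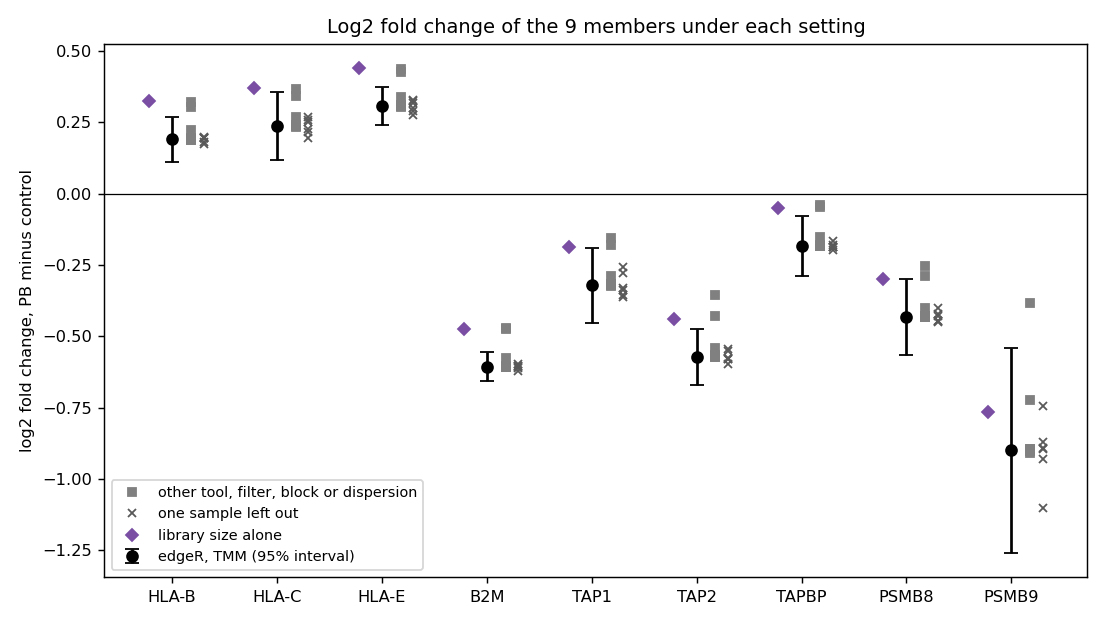
Log2 fold change (vertical axis, PB minus control) of each member, with the edgeR estimate and its 95% interval (black), the estimate with library size alone (diamond), other tools and filters (squares) and fits without 1 library (crosses). The 3 heavy chains stay above 0 and the other 6 members below it at every setting shown, and TAPBP comes closest to 0.

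The immunoproteasome subunits did not fall alone: the other subunits of the 20S core went down with them. Only PSMB5, PSMB6 and PSMB7 of the constitutive core are replaced in the immunoproteasome, and its other subunits are part of both forms. Of 14 subunits of the constitutive 20S core, 0 rose and 13 fell with TMM, 2 of them DEGs, with a median log2 fold change of -0.55. PSMB4, at -0.12 with TMM, was at 0.01 at the other end of the alternatives. PSMB6, the subunit that PSMB9 replaces, went from 56.8 ± 1.47 to 25.6 ± 1.10 FPKM (log2 fold change -1.27), and PSMB3 from 81.0 ± 2.17 to 41.1 ± 2.65 FPKM (-1.11). PSMB5, which PSMB8 replaces, had a log2 fold change of -0.73, and PSMB7, which PSMB10 replaces, of -0.19 with TMM and -0.06 with library size alone, where it did not pass (edgeR adjusted p = 0.0608). PSMA2 was the subunit that did not pass (-0.09, edgeR adjusted p = 0.659), and it was at 0.523 ± 0.0416 FPKM in the control.

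Relative to the constitutive subunit each replaces, PSMB8 was higher with PB, and PSMB9 and PSMB10 had overlapping groups. PSMB8 over PSMB5 was 0.147, 0.139 and 0.150 in the control samples and 0.181, 0.179 and 0.176 with PB, higher in all 3 PB samples (log2 difference 0.30, exact permutation p = 0.1, 0.15 adjusted). PSMB9 over PSMB6 was 0.0218 ± 0.00099 and 0.0281 ± 0.0056, with overlapping groups (exact permutation p = 0.2, 0.257 adjusted). PSMB10 over PSMB7 was 0.0130 ± 0.0018 and 0.0127 ± 0.0018, also overlapping (exact permutation p = 0.7, also 0.7 adjusted).

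Of the other genes around the immunoproteasome, 0 of 6 rose and 5 fell, with a median of -0.48. POMP, a chaperone of proteasome assembly, had the largest change, from 24.1 ± 0.371 to 14.6 ± 0.693 FPKM (log2 fold change -0.85). The PA28 activator chains PSME2 and PSME1 had log2 fold changes of -0.65 and -0.48, the nuclear activator PSME3 of -0.49 and the activator PSME4 of -0.26. PSMB10, the remaining catalytic subunit of the immunoproteasome, was at -0.27 and did not pass (edgeR adjusted p = 0.243).

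**Figure D4:**
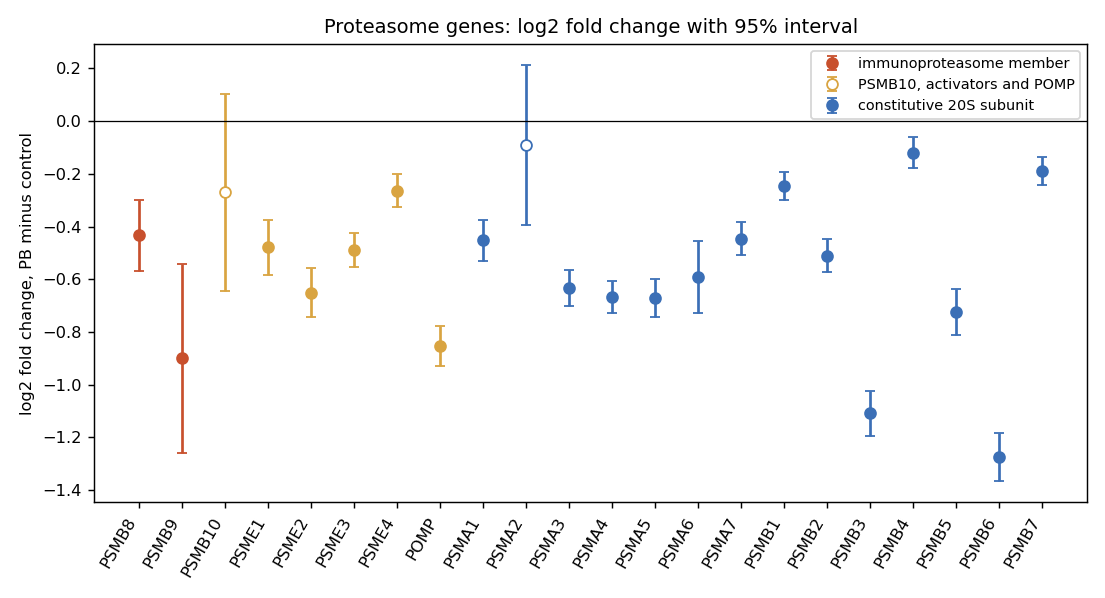
Log2 fold change with its 95% interval (vertical axis, PB minus control) of PSMB8 and PSMB9, of PSMB10 with the activators and POMP, and of the 14 constitutive core subunits; open points did not pass. All points lie below 0 with TMM, PSMB6 and PSMB3 lowest, and the open points are PSMB10 and PSMA2, while PSMA2 and PSMB4 reach above 0 under other scalings.

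Genes that load and trim class I peptides divided, 2 rising and 5 falling of 9 with TMM, with a median of -0.08. With library size alone 4 rose and 4 fell, and DESeq2's test left 1 rising. Those with the largest falls were members of the peptide-loading complex and its surroundings. Calreticulin (CALR), a chaperone of the complex, went from 172.6 ± 2.26 to 138.3 ± 3.96 FPKM (log2 fold change -0.45). PDIA3, the disulfide isomerase paired with tapasin, was at -0.39, and BCAP31, a receptor for export of class I molecules, at -0.34. CANX, the lectin chaperone of new heavy chains, fell with -0.21, and HM13, the signal peptide peptidase, with -0.08 on TMM but was at 0.05 at the other end of the alternatives. TAPBPL, the tapasin-related peptide editor, rose from a low level of 0.683 ± 0.0153 to 1.09 ± 0.125 FPKM (0.54), but did not pass without PB replicate 3 (0.44, edgeR adjusted p = 0.0813), and the aminopeptidase LNPEP rose with 0.16. The trimming aminopeptidases ERAP1 and ERAP2, at 0.07 and 0.18, did not pass with TMM (edgeR adjusted p = 0.179 and 0.200) and passed with library size alone (edgeR adjusted p = 2.18e-05 and 0.0189).

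Of 7 other class I and class I-like chains 5 were tested, 2 rose and 1 fell. FCGRT, the heavy chain of the neonatal Fc receptor, which also pairs with B2M, rose with 0.44. HFE, the iron-sensing class I-like chain, was the 1 that fell (-0.18), and it did not pass with library size alone (-0.04) or without any 1 library other than control replicate 2 (-0.19 to -0.14). HLA-F and MR1 did not pass, and HLA-G and CD1D were below the level tested. Of 9 class I pseudogenes 5 were tested and 2 rose, HLA-J from 0.743 ± 0.112 to 1.66 ± 0.388 FPKM (1.02, a DEG) and HLA-L with 0.63. Both share sequence with the heavy chains, so reads could have passed between them.

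Of the 5 genes known to control class I molecules at the surface, 4 rose and 1 fell, with a median of 0.31. MARCHF4, a membrane ubiquitin ligase able to take class I molecules off the surface, fell from 16.7 ± 0.252 to 7.51 ± 0.0802 FPKM (log2 fold change -1.28, a DEG). The related ligase MARCHF9 rose (0.38), as did TMEM127 (0.41), SUSD6 (0.31) and WWP2 (0.24), which together send class I molecules to lysosomes.

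The ligands of NKG2D, an activating receptor of natural killer cells, went both ways, 3 rising and 2 falling of 7 tested, with a median of 0.00, and with DESeq2's test 1 rose and 2 fell. ULBP1 was at 4.77, 5.14 and 5.20 FPKM in the control samples and at 24.25, 25.88 and 24.24 FPKM with PB, a log2 fold change of 2.16 (SE 0.055; edgeR adjusted p = 1.09e-43), a DEG as were 5.57% of tested genes in this direction. ULBP2 (0.44) and RAET1E (0.26) also rose, the latter at the edge of the threshold (edgeR adjusted p = 0.0499) and at 0.17 without control replicate 1 or without PB replicate 3, where it did not pass, as it did not without control replicate 2 (0.28) or PB replicate 2 (0.24). ULBP2 did not pass without control replicate 3 (edgeR adjusted p = 0.173) or without PB replicate 3 (edgeR adjusted p = 0.101). MICB (-0.51) and MICA (-0.35), which lie in the MHC region beside HLA-B, fell.

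**Figure D5:**
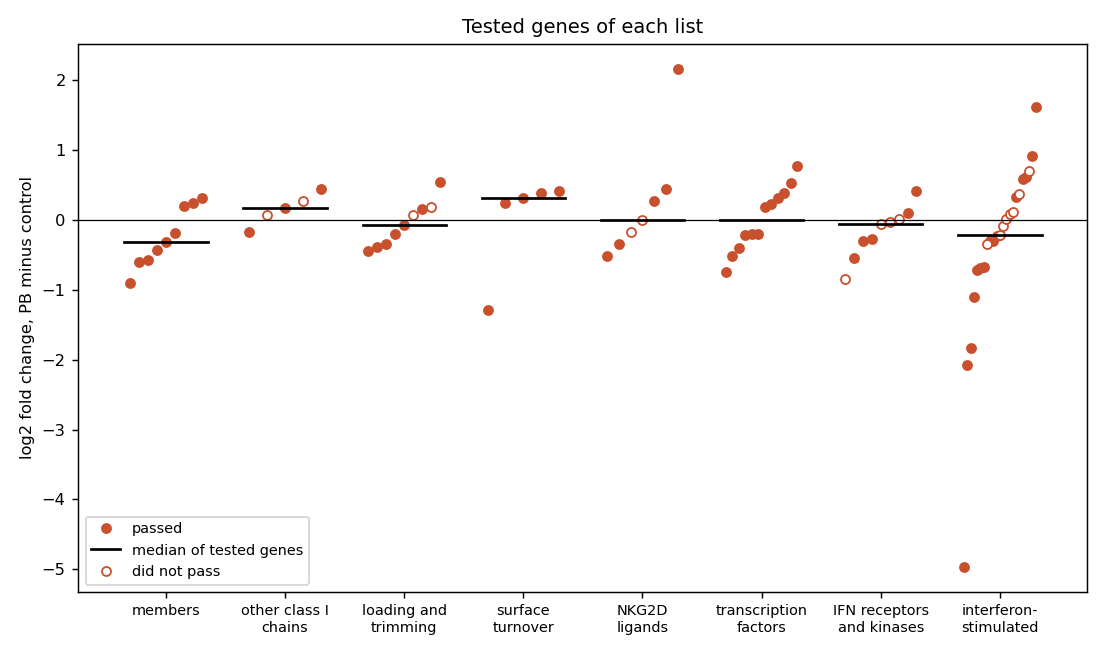
Log2 fold change (vertical axis, PB minus control) of every tested gene of 8 lists, with filled points for genes that passed, open points for those that did not and a line at the median. The members split into 3 above and 6 below 0, ULBP1 stands at 2.16 among the NKG2D ligands, and the lowest point, OAS1, had at most 3 counts in each PB library, so that its fitted value is no bound.

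Transcription factors that act on class I promoters went both ways, 6 rising and 6 falling of 12 with TMM and a median of -0.01. With library size alone 6 rose and 3 fell, and with limma 5 rose and 3 fell. STAT2 and IRF9, which act together in the response to type I interferon, rose with 0.78 and 0.52. RFX5, which binds the X box of class I and class II promoters, fell (-0.51). NLRC5, the class I transactivator, was low in both groups, at 0.330 ± 0.010 and 0.463 ± 0.0709 FPKM, and rose with 0.38 (edgeR adjusted p = 0.0235), but not when control replicate 3 (edgeR adjusted p = 0.0884) or PB replicate 3 (0.24, edgeR adjusted p = 0.222) was left out. IRF1, an interferon-induced activator, had overlapping groups, at 1.05 ± 0.0551 and 0.987 ± 0.0577 FPKM, and passed with -0.22 under TMM (edgeR adjusted p = 0.0337) but not with library size alone (-0.09, edgeR adjusted p = 0.432) or without control replicate 2, control replicate 3 or PB replicate 1 (-0.20 to -0.18).

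Of 9 interferon receptors, kinases and inhibitors, 2 rose and 3 fell with TMM, with a median of -0.06. The number that rose was 4 with library size alone and 1 with DESeq2's test, DESeq2 size factors or the replicate block. The kinase JAK2, used by the interferon-γ receptor, rose (0.42), and the kinase JAK1 (-0.30), the feedback inhibitor SOCS3 (-0.55) and the receptor chain IFNAR2 (-0.28) fell. The receptor chain IFNGR1 was at 0.10 and passed narrowly (edgeR adjusted p = 0.0479), but not without control replicate 3 (0.05, edgeR adjusted p = 0.411) or without any of the PB libraries (0.09 to 0.11). IFNAR2 did not pass without control replicate 1 (-0.22, edgeR adjusted p = 0.0985) or with library size alone (-0.15).

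Of 30 interferon-stimulated genes listed 23 were tested, and with TMM 5 rose and 10 fell, with a median of -0.21. With library size alone 10 rose and 9 fell, and with limma 8 rose and 9 fell. OAS1, a sensor of double-stranded RNA, had 59, 74 and 97 counts in the control libraries and 3, 1 and 3 with PB, which is at the floor, so no fold is given. The related OAS3 fell from 2.10 ± 0.0964 to 0.543 ± 0.0757 FPKM (log2 fold change -2.07), and the guanylate-binding protein GBP2, at 0.557 ± 0.0306 and 0.167 ± 0.0551 FPKM, with -1.83. ISG20, an exonuclease, rose from 0.270 ± 0.020 to 0.920 ± 0.0346 FPKM (1.61). The others that rose were IFIT2 (0.92), IFI44 (0.62), IFI35 (0.58) and IFIT3 (0.33).

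On chromosome 6 between 29 and 34 Mb, 198 genes other than the members were tested, of which 62 rose and 34 fell, 48.5% in all, with a median log2 fold change of 0.26. That median weighs every gene alike, also those near the floor. An example is SNORD32B, at 2.66 from 2 counts in PB replicate 3 and 0 in each control library. Some of these also stand in the lists above. MHC class II genes, which present peptides from outside the cell, were all below 1 FPKM in both groups, and 6 of 13 were at 0 in every library; 3 were tested, and HLA-DMA (-1.07) and HLA-DMB fell.

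The 5 genes with mean FPKM of at least 10 whose profile over the 6 samples was most like the mean of the members were AHCY, EIF3M, TMEM14B, an unnamed gene (ENSG00000219201) and MICA. Their Pearson correlation with that mean was 0.996 to 0.997, among 4488 genes compared, over 6 samples that fall into 2 groups and so mainly share the difference between groups. The mean mixes members that rose with members that fell. It was lower with PB by 0.25 on the log2 scale, so the likeness is not to the heavy chains. Of 16 housekeeping genes 4 rose and 10 fell, with a median of -0.22. PPIA had a log2 fold change of -1.06, TFRC of -0.94, ACTB of -0.91 and PGK1 of -0.86, each beyond that of B2M, while RPLP0 (0.27), GUSB (0.16) and POLR2A (0.06) were among those that rose.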

How the data were processed

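Samples were grouped by their titles, and dose and time were taken from the study's methods. Per the labels, poly(A) libraries were sequenced as 2x150 paired ends on an Illumina Novaseq. The submitters' processing notes name hg38, HTSeq 0.6.1, Cufflinks 2.2.1 and DESeq2; aligner, annotation and strand setting are not given in the sources used here. The authors deposited raw counts per gene and FPKM values, and 100% of the FPKM lay within 0.0051 of the value computed from count, exonic length and library total. Gene names and positions were deposited with them.

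The main test was edgeR 4.0.16 (R 4.3.3, TMM, quasi-likelihood) on the counts of 24200 genes that averaged 0.1 FPKM or more, with Benjamini-Hochberg adjustment over all of them. The study used DESeq2; here DESeq2 1.42.0 and limma 3.58.1, on log2 of FPKM plus 0.1 or plus 1, were alternatives, as were library size alone, DESeq2 size factors, no filter, a mean FPKM of at least 1, the replicate number as a block and leaving out each library; older edgeR dispersions were added after seeing the data. Ratios were compared by exact two-sided permutation tests. On simulated counts of 24200 genes for this comparison, edgeR recovered 200 of 200 changed genes with 4 false calls among 24000. The planted log2 changes were at least 1 in size and sat in well-counted genes. Smaller changes, as in all the members, were not simulated. Nor were a change in as many genes as here or a scaling difference between the groups. Depth was 15681655 to 21986948 counts, and the floor of 3 counts covers counting error only.

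The members and lists were chosen with earlier results of these data known. Genes named from a list were up to 4 that passed with the largest absolute change, all that passed where these were 5 or fewer, and PSMB5, PSMB6, PSMB7, PSMB10, NLRC5, IRF1 and RFX5; ERAP1, ERAP2, PSMA2, HLA-F, MR1 and the others named beyond this were chosen after their values were seen. Some genes that this rule names are not reported here. Promoter windows were those of RefSeq nearest the deposited gene's 5′ end.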

Additional observations from a re-analysis of the deposited data

How the results depend on the processing

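Over 15 alternative fits the 9 members gave 134 values, of which 129 kept their direction and their side of the threshold, 5 no longer passed and 0 reversed. The 5 were TAP1 with limma at both pseudocounts (-0.18 and -0.16; limma adjusted p = 0.0596 and 0.0610) and TAPBP with library size alone (-0.05; adjusted p = 0.435) and with limma (-0.05 and -0.04; adjusted p = 0.319 and 0.315). PSMB9 was not tested at a mean FPKM of at least 1. When each library was left out in turn 3 members rose and 6 fell every time.

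Requiring an absolute log2 fold change of at least 1 left 1347 genes higher and 1671 lower, and 0 of the members either way. It left 2 constitutive core subunits lower, 1 NKG2D ligand higher and 0 lower, 1 interferon-stimulated gene higher and 4 lower, 0 surface-turnover genes higher, and 11 genes higher and 13 lower in the MHC region. It left 0 in either direction of the loading, activator, other class I, transcription factor and interferon receptor lists. With library size alone 4 loading genes, 4 interferon receptors and kinases and 10 interferon-stimulated genes rose, and 0 other class I chains and 3 transcription factors fell. With limma at either pseudocount 8 interferon-stimulated genes rose, and 3 transcription factors and 0 other class I chains fell. With DESeq2's test 1 loading gene, 1 NKG2D ligand and 1 interferon receptor or kinase rose and 0 other class I chains fell; DESeq2 size factors also left 1 receptor or kinase higher, and no filter or a mean FPKM of at least 1 left 0 other class I chains lower. Leaving out single libraries gave 1 to 3 NKG2D ligands higher and 2 to 3 lower, 1 to 2 interferon receptors and kinases higher and 2 to 3 lower, 1 to 2 other class I chains higher and 0 to 1 lower, 4 to 5 transcription factors lower and -0.142 to 0.068 for the log2 difference of PSMB10/PSMB7, which turned to 0.058 without control replicate 3 and 0.068 without PB replicate 3. PSMA2, not called, turned positive with library size alone (0.041), limma (0.015 and 0.0081) and without PB replicate 2 (0.030). The causes were not tested.

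The replicate numbers are shared by the groups but did not pair the libraries: same-numbered libraries' deviations correlated at -0.03, 0.04 and -0.03. With the number as a block 11799 genes passed (5648 higher, 6151 lower) against 12199 without it, 11785 of them shared, 3 members rose and 6 fell, and 1 interferon receptor or kinase rose. With the older dispersions 12151 genes passed. Depth limits PSMB9 most, at 29 to 94 counts.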
